A study of Mus musculus with 9 samples.

Results

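The genes described here are 10 components of transforming growth factor-β (TGF-β) signalling, taken from a table of 21883 mouse genes. They were chosen by name and role, with earlier results of these data known. They comprise the ligands *Tgfb1* and *Tgfb3*, the receptors *Tgfbr1* and *Tgfbr2*, the receptor-regulated Smads *Smad2* and *Smad3*, the common Smad *Smad4*, the inhibitory Smad *Smad7*, and the corepressors *Ski* and *Skil*. All 10 were in the table and all 10 were tested in each comparison. RNA was sequenced from invariant natural killer T (iNKT) cells, T cells with a semi-invariant receptor that recognises lipids on CD1d, sorted from the thymus of C57BL/6 mice. The question behind the samples was how Med23, a subunit of the Mediator complex that links transcription factors to RNA polymerase II, acts in the last maturation step of these cells. The 3 groups held 3 libraries each. WT stage 2 and WT stage 3 cells came from wild-type mice aged 6 weeks, and the *Med23*-deficient stage 2 cells came from mice with a floxed *Med23* allele deleted by Cd4-Cre, whose age the labels do not give. Cd4-Cre is active from the double-positive thymocyte stage onward, so it acts in conventional T cells as well as in iNKT cells. Stages were gated on tetramer-binding cells by CD24, CD44 and NK1.1, with NK1.1 absent at stage 2 and present at stage 3. No *Med23*-deficient stage 3 cells were sequenced, so stage and genotype are not crossed.

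TGF-β ligands are made as latent complexes and bind the type II receptor TGFBR2, which recruits and phosphorylates the type I receptor TGFBR1. TGFBR1 phosphorylates SMAD2 and SMAD3, which enter the nucleus with SMAD4, while SMAD7 blocks the receptor and SKI and SKIL hold Smad target genes silent. In the thymus, TGF-β signalling is known to support the survival and staged maturation of iNKT cells, and it restrains T-bet and the cytotoxic programme in T cells. The values below are transcript levels in FPKM, fragments per kilobase of gene, scaled to the fragments mapped in the library, and say nothing of protein, phosphorylation or ligand activation. In sorted bulk samples, fewer expressing cells and less RNA per cell cannot be told apart.

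Between 15584 and 17333 genes were above 0 in a library, and 1 non-coding gene model, *Gm23935*, held 62.2% to 71.9% of the summed FPKM, so shared shifts of scale between libraries are possible. Among genes averaging 1 FPKM or more, the median log2 fold change was -0.05 between the WT stages, -0.05 from WT stage 2 to *Med23*-deficient cells and -0.00 from WT stage 3 to *Med23*-deficient cells. Rescaling to TPM, in which each library has the same sum, moved these medians to -0.14, -0.16 and -0.02. *Med23* itself was at 5.51, 5.15 and 6.74 FPKM in WT stage 2, at 7.14, 4.44 and 6.12 in WT stage 3 and at 4.80, 3.60 and 3.92 in the *Med23*-deficient libraries. The deficient libraries were all below WT stage 2, but the difference did not pass the test (log2 fold change -0.41 ± 0.18 (SE), adjusted p = 0.552, limma with Benjamini-Hochberg adjustment), and a gene-wide value cannot show the loss of single exons. The 12 iNKT identity markers summed to 1325 to 1747 FPKM across libraries, whereas the B cell markers in the table summed to at most 0.5 FPKM, the platelet ones to at most 0.54, the erythroid ones to at most 0.75, the myeloid ones to at most 2.33 and those of double-positive thymocytes to at most 4.99. The first list includes *Trac*, *Trbc1*, *Trbc2* and the CD3 genes, which conventional T cells also express. Its sum therefore does not set iNKT cells apart from conventional T cells. Among its other genes, *Zbtb16*, encoding PLZF, was at 22.7 to 112 FPKM, *Klrb1c*, encoding NK1.1, at 2.61 to 95.1 and *Cd24a* at 0 to 0.72. The stromal and endothelial list summed to 8.71 to 9.52 FPKM in WT stage 2, 1.97 to 3.87 in WT stage 3 and 8.02 to 10.8 in *Med23*-deficient cells. Most of each sum was *Pecam1*, which T cells can also express, at 1.76 to 2.80 in WT stage 3 and 7.59 to 10.8 in the other libraries. *Epcam*, an epithelial gene of that list, was at 0.21 to 0.79 in WT stage 3 and at 0 to 0.49 elsewhere. The part of either gene in the stage differences below was not tested. A list of 5 γδ T cell genes was at 302 to 365 FPKM in WT stage 2, 300 to 351 in WT stage 3 and 4.13 to 9.11 in *Med23*-deficient cells. The sums were carried by the γ-locus genes *Trgv2*, *Tcrg-C1* and *Tcrg-C2*, which were at 70.3 to 138 FPKM in the WT libraries and at 0 to 5.47 in the *Med23*-deficient ones, whereas *Trdc*, the δ constant gene, was at 0 to 0.38 in all 9 libraries and *Sox13*, a γδ T cell transcription factor, was at 1.95 to 5.07 in WT stage 2, 0 to 1.31 in WT stage 3 and 2.10 to 4.32 in *Med23*-deficient cells. Whether the γ-locus genes had any part in the differences from *Med23*-deficient cells below was not tested.

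**Figure D1:**
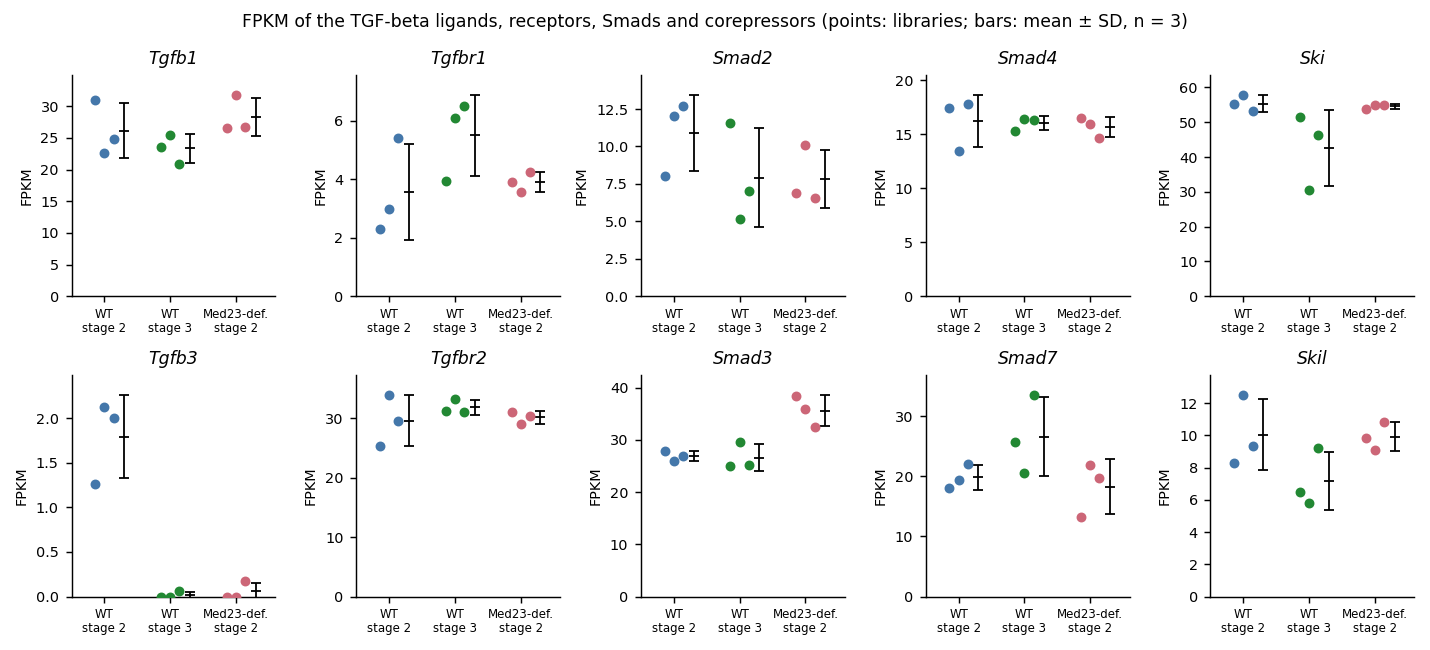
FPKM (linear axis from 0) of the 10 genes in each library, grouped by stage and genotype, with bars for the mean ± SD of n = 3. *Tgfb3* is at 1.26 to 2.12 FPKM in WT stage 2 and at 0 to 0.17 elsewhere, and *Smad3* is highest in the *Med23*-deficient libraries, at 32.5 to 38.4.

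*Tgfb3* (ENSMUSG00000021253, mm10 chr12:86056744-86079041, minus strand), which encodes the TGF-β isoform known for its part in palate closure, was the member whose level moved furthest. It was at 1.26, 2.12 and 2.0 FPKM in WT stage 2, at 0, 0 and 0.06 in WT stage 3, and at 0, 0 and 0.17 in *Med23*-deficient stage 2 cells. Every WT stage 2 library was thus above all 6 others, and 4 of those 6 listed the gene at 0. From WT stage 2 to WT stage 3, *Tgfb3* fell by 1.44 on the log2(FPKM + 1) scale (SE 0.19, adjusted p = 0.0293, limma with Benjamini-Hochberg adjustment), a scale that understates changes of a gene this low. That call rests on all 6 libraries. With 1 library left out, the adjusted p ran from 0.0481 to 0.130 and passed only without WT stage 2 replicate 1, so that it was lost when replicate 2 or 3 of WT stage 2 or any WT stage 3 replicate was left out. In such fits all genes called by adjusted p also went from 346 to between 22 and 137. In *Med23*-deficient against WT stage 2 cells, *Tgfb3* fell by 1.39 (SE 0.20) and passed a fold change of at least 2 with an unadjusted p of at most 0.05, with an adjusted p of 0.0814 (limma, Benjamini-Hochberg) that missed the threshold. These comparisons share the WT stage 2 libraries as reference, so they are not separate evidence. *Med23*-deficient stage 2 and WT stage 3 cells differed by 0.05 on the same scale (95% interval -0.13 to 0.23). The gene overlaps *Ttll5* on the opposite strand, whose level was 1.54 to 2.69 FPKM over all 9 libraries. The libraries were made with a stranded kit, but whether counting used strand is not stated, so reads of the pair may not be separated.

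**Figure D2:**
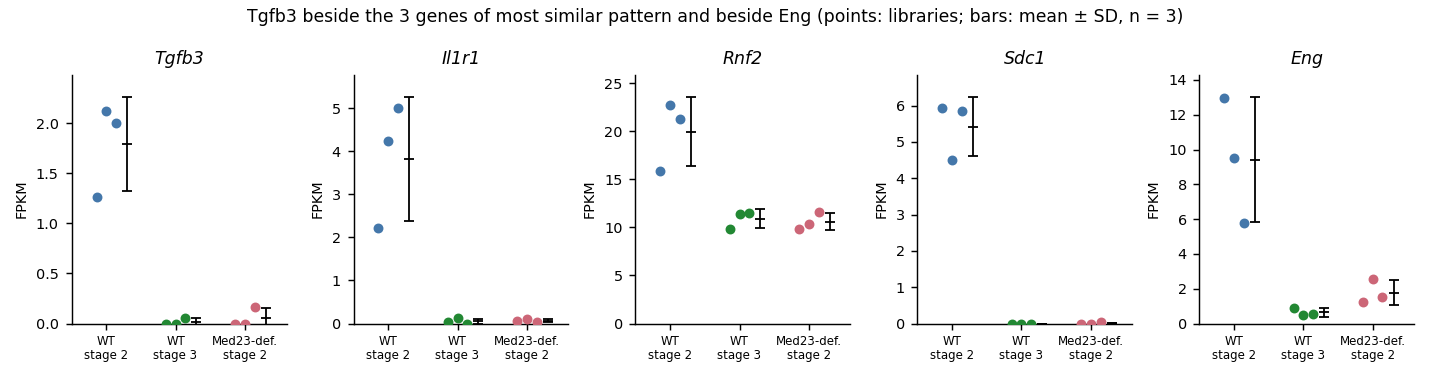
FPKM (linear axes from 0) of *Tgfb3*, the 3 genes of most similar pattern over the 9 libraries (*Il1r1*, *Rnf2*, *Sdc1*) and *Eng*, with bars for the mean ± SD of n = 3. All 5 genes are higher in each WT stage 2 library than in any other library.

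By Pearson correlation of log2(FPKM + 1) over the 9 libraries among 9662 genes averaging 1 FPKM or more, the genes whose pattern was most like that of *Tgfb3* were *Il1r1* (r = 0.989), *Rnf2* (r = 0.981) and *Sdc1* (r = 0.970). The 9 libraries fall into 3 groups, so these values mainly describe a shared difference between WT stage 2 and the rest. *Il1r1*, the signalling receptor for interleukin-1, was at 2.23, 4.23 and 5.01 FPKM in WT stage 2, against 0 to 0.12 in the other 6 libraries. *Rnf2*, a ubiquitin ligase of Polycomb repressive complex 1, was at 15.9, 22.8 and 21.2 in WT stage 2 and between 9.79 and 11.6 elsewhere. *Sdc1*, the heparan sulphate proteoglycan CD138, was at 5.94, 4.49 and 5.84 in WT stage 2 and was listed at 0 in 5 of the 6 other libraries and at 0.03 in 1. A list of 5 cell division genes ran the same way, with sums of 36.4 to 49.6 FPKM in WT stage 2, 3.12 to 10.8 in WT stage 3 and 4.97 to 5.72 in *Med23*-deficient cells, and its part in the level of *Tgfb3* was not tested.

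*Tgfb1* (ENSMUSG00000002603, chr7:25687002-25705077, plus strand), the main TGF-β isoform of lymphocytes, was the abundant ligand. It was at 31.0, 22.6 and 24.9 FPKM in WT stage 2, at 23.6, 25.5 and 20.9 in WT stage 3 and at 26.6, 31.8 and 26.7 in *Med23*-deficient cells. WT stage 2 overlapped both other groups, and the lowest *Med23*-deficient library lay above the highest WT stage 3 library, a log2 difference of 0.27 ± 0.12 (SE) that did not pass (adjusted p = 0.522, limma with Benjamini-Hochberg adjustment). Within each library the ratio of *Tgfb3* to *Tgfb1*, which does not depend on how the library was scaled, was 0.0406, 0.0939 and 0.0804 in WT stage 2. It was 0, 0 and 0.00287 in WT stage 3 and 0, 0 and 0.00638 in *Med23*-deficient cells. WT stage 2 thus stood above both other groups without overlap, and the exact permutation test gave p = 0.1 for each, the smallest that 3 against 3 libraries allow (2-sided, 0.3 after Benjamini-Hochberg adjustment over 15 ratio tests). This order follows from the *Tgfb3* values given above, so the ratio is not separate evidence. The third ligand, *Tgfb2*, was at or below 0.09 FPKM in every library.

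*Tgfbr2* (ENSMUSG00000032440, chr9:116084293-116175360, minus strand), the ligand-binding type II receptor, was among the steadiest members. It was at 25.3, 33.9 and 29.5 FPKM in WT stage 2, at 31.3, 33.2 and 31.0 in WT stage 3 and at 31.0, 29.0 and 30.4 in *Med23*-deficient cells. The groups overlapped throughout, and the 95% intervals of the log2 fold change were -0.18 to 0.41 between the WT stages, -0.26 to 0.33 from WT stage 2 to *Med23*-deficient cells and -0.26 to 0.11 from WT stage 3 to *Med23*-deficient cells. *Tgfbr1* (ENSMUSG00000007613, chr4:47353222-47414931, plus strand), the kinase that phosphorylates SMAD2 and SMAD3, was lower in every library, at 2.29, 2.98 and 5.41 in WT stage 2, 3.93, 6.10 and 6.51 in WT stage 3 and 3.91, 3.56 and 4.27 in *Med23*-deficient cells. WT stage 2 replicate 3 lay within the WT stage 3 values, and the stage difference of 0.55 (95% interval -0.22 to 1.32) did not pass. The ratio of *Tgfbr2* to *Tgfbr1* ranged from 4.76 to 11.4 over the 9 libraries, with overlap between all 3 groups.

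**Figure D3:**
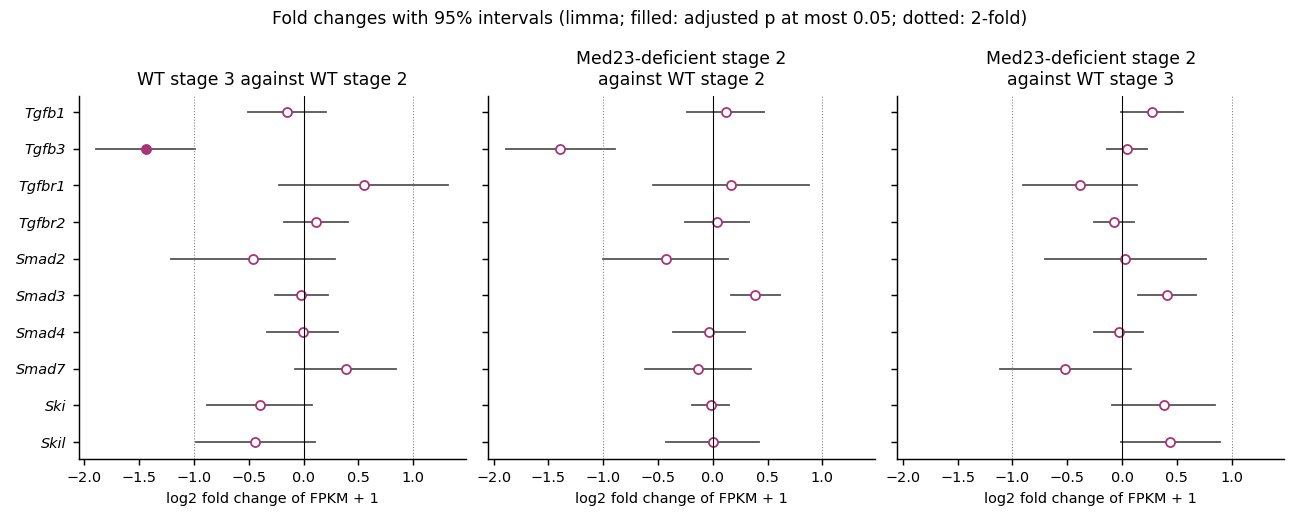
Log2 fold changes of FPKM + 1 (points) with 95% intervals (lines) from limma for the 10 genes in the 3 comparisons, with filled points for an adjusted p of at most 0.05 and dotted lines at a fold change of 2. *Tgfb3* in WT stage 3 against WT stage 2 is the 1 filled point, at -1.44, and the intervals of *Smad3* lie above 0 in both comparisons with *Med23*-deficient cells.

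*Smad3* (ENSMUSG00000032402, chr9:63646767-63757994, minus strand), the receptor-regulated Smad that binds DNA directly, had its highest level in *Med23*-deficient cells. It was at 27.8, 25.9 and 26.9 FPKM in WT stage 2, at 24.9, 29.6 and 25.2 in WT stage 3 and at 38.4, 35.9 and 32.5 in *Med23*-deficient stage 2 cells. All 3 *Med23*-deficient libraries were above all 6 WT libraries, and the WT stages overlapped each other. The difference from WT stage 2 was 0.39 ± 0.09 on the log2 scale (SE, unadjusted p = 0.00529, adjusted p = 0.219, limma with Benjamini-Hochberg adjustment), equal to a fold of 1.31, and that from WT stage 3 was 0.41 ± 0.11 (unadjusted p = 0.00882, adjusted p = 0.214). It therefore passed neither a fold of 2 nor the adjusted threshold, and its adjusted p was between 0.145 and 0.566 against WT stage 2 and between 0.101 and 0.467 against WT stage 3 under the other settings tried, with the log2 difference between 0.26 and 0.49 in both. The WT stage 3 and WT stage 2 levels differed by -0.02 (95% interval -0.26 to 0.22).

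Of the Smads, only *Smad3* had a matched sequence before its start site. That sequence is shown because every *Med23*-deficient library was above every WT library for *Smad3*, though the difference did not pass the adjusted threshold. The sequence comes from RefSeq for GRCm38.p6, chr9:63757995-63758244 on the minus strand, written 5′ to 3′. The capitals mark the GC box GGGCGG, the motif bound by Sp1-type factors.

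Smad3: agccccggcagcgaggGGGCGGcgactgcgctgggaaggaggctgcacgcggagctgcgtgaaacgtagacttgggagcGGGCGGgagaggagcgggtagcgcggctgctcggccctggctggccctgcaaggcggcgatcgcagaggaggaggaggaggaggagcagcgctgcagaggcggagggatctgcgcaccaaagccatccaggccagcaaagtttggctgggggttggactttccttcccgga

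These 250 bases held 2 GC boxes and 22 CpG dinucleotides, and 69.2% of them were G or C, against a median of 52.4% over 32851 such stretches in the table. On both strands, a GC box was found in 32.7% of all stretches, the AP-1 motif TGANTCA in 6.75%, the Smad motif CAGAC in 42.2% and the longer GTCTNGAC in 1.47%. None of the last 3 motifs was in the *Smad3* stretch. Of the 10 genes, 5 were matched in the table (*Tgfb1*, *Tgfbr1*, *Tgfbr2*, *Smad3* and *Ski*). G or C made up 87.6% of the *Ski* stretch and 75.2% of the *Tgfb1* stretch, each with 5 GC boxes. The share was 74.8% and 52.8% in 2 *Tgfbr1* stretches, with 2 and 0 GC boxes, and 58.4% for *Tgfbr2*, with 0. A high share and GC boxes were thus not particular to *Smad3*, and any link to its level was not tested.

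*Smad2* (ENSMUSG00000024563, chr18:76241580-76305731, plus strand), the other receptor-regulated Smad, was less abundant and more variable. It was at 8.02, 12.01 and 12.7 FPKM in WT stage 2, at 11.6, 5.17 and 7.0 in WT stage 3 and at 6.87, 10.1 and 6.58 in *Med23*-deficient cells. All groups overlapped, and the difference from WT stage 2 was -0.46 (95% interval -1.21 to 0.29) for WT stage 3 and -0.43 (95% interval -1.0 to 0.14) for *Med23*-deficient cells. The within-library ratio of *Smad3* to *Smad2* was 3.47, 2.16 and 2.11 in WT stage 2, 2.16, 5.73 and 3.60 in WT stage 3 and 5.60, 3.56 and 4.93 in *Med23*-deficient cells. All 3 *Med23*-deficient ratios were above the WT stage 2 ratios, a log2 difference of 0.88 ± 0.30 (SE) with an exact permutation p of 0.1, the smallest possible, and 0.3 after adjustment. The WT stage 3 ratios overlapped both groups.

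*Smad4* (ENSMUSG00000024515, chr18:73639009-73703780, minus strand), the partner shared by TGF-β and bone morphogenetic protein (BMP) signals, had the smallest range of group means. It was at 17.5, 13.4 and 17.8 FPKM in WT stage 2, at 15.3, 16.4 and 16.4 in WT stage 3 and at 16.5, 15.9 and 14.7 in *Med23*-deficient cells. The groups overlapped in each comparison, and the widest 95% interval, for *Med23*-deficient against WT stage 2, ran from -0.37 to 0.29 on the log2 scale.

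*Smad7* (ENSMUSG00000025880, chr18:75367529-75395935, plus strand), which is induced by TGF-β and targets its receptor for degradation, was at 18.0, 19.4 and 22.0 FPKM in WT stage 2, at 25.6, 20.6 and 33.5 in WT stage 3 and at 13.2, 21.9 and 19.7 in *Med23*-deficient cells. The highest library was a WT stage 3 one and the lowest a *Med23*-deficient one, but all groups overlapped. The difference between WT stages was 0.38 (95% interval -0.08 to 0.84), and *Med23*-deficient stage 2 differed from WT stage 3 by -0.52 (95% interval -1.12 to 0.08). Neither passed the test. Set against *Smad3* in the same library, *Smad7* was at a ratio of 0.647, 0.747 and 0.820 in WT stage 2, 1.03, 0.694 and 1.33 in WT stage 3 and 0.344, 0.609 and 0.608 in *Med23*-deficient cells. The *Med23*-deficient ratios were below all 6 WT ratios, with log2 differences of -0.55 ± 0.29 (SE) from WT stage 2 and -0.97 ± 0.39 from WT stage 3, each with an exact permutation p of 0.1, the smallest possible, and 0.3 after adjustment.

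**Figure D4:**
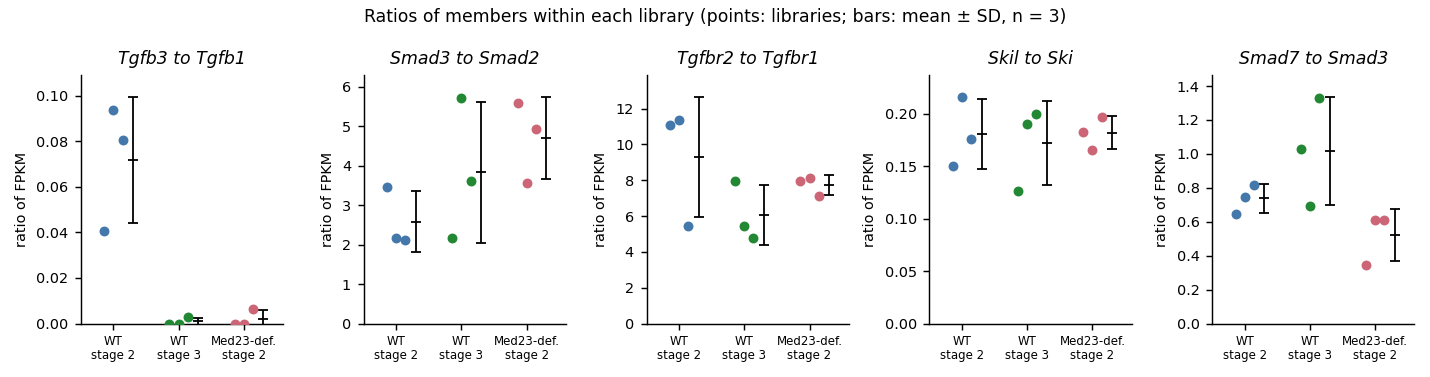
Ratios of FPKM between 2 members within each library (linear axes from 0), with bars for the mean ± SD of n = 3. *Smad7* to *Smad3* is 0.344 to 0.609 in the *Med23*-deficient libraries and 0.647 to 1.33 in the WT ones, and *Skil* to *Ski* overlaps between all groups.

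*Ski* (ENSMUSG00000029050, chr4:155154075-155222592, minus strand), a corepressor that binds the SMAD2 or SMAD3 complex with SMAD4, was the most abundant member. It was at 55.1, 57.9 and 53.1 FPKM in WT stage 2, at 51.4, 30.5 and 46.2 in WT stage 3 and at 53.8, 54.9 and 55.0 in *Med23*-deficient cells. Every WT stage 3 library was below all 6 stage 2 libraries, whatever the genotype, with WT stage 3 replicate 2 far below the rest. The log2 difference from WT stage 2 was -0.40 ± 0.20 (SE, adjusted p = 0.461, limma with Benjamini-Hochberg adjustment), and it ran from -0.55 to -0.18 when 1 library was left out. *Skil* (ENSMUSG00000027660, chr3:31095058-31122577, plus strand), which encodes the related SnoN, was at 8.28, 12.5 and 9.33 in WT stage 2, at 6.47, 5.80 and 9.22 in WT stage 3 and at 9.84, 9.08 and 10.8 in *Med23*-deficient cells. WT stage 3 replicate 3 lay among the stage 2 values, and the stage difference of -0.44 (95% interval -0.98 to 0.10) did not pass. The ratio of *Skil* to *Ski* was between 0.126 and 0.216 in all 9 libraries.

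Counted together, 1 of the 10 genes, *Tgfb3*, passed the fold and p thresholds between the WT stages, against 3.6% of the 20689 genes tested, and the same 1 passed the adjusted threshold, against 1.67%. In 2 of the 10, *Tgfb3* and *Ski*, the WT stages did not overlap, against 17.8% of all genes. Set against WT stage 2, *Med23*-deficient cells had 1 of 10 past fold and p, again *Tgfb3*, against 2.11% of 20674 genes, and 0 passed the adjusted threshold in limma, against 0.213%. In limma, 2 of the 10, *Tgfb3* and *Smad3*, had an unadjusted p of at most 0.05, against 9.58% of all genes, and the linear model with a library-size covariate also called 0 by adjusted p. For these same 2 of the 10 the libraries of one group all lay beyond those of the other, against 14% of all genes. Between *Med23*-deficient stage 2 and WT stage 3 cells, limma called 0 of 10 by fold and p, against 2.86% of 20846 genes, and 0 by adjusted p, against 1.33%, as did the model with a library-size covariate, while 1 gene, *Smad3*, had an unadjusted p of at most 0.05, against 10.2% of all genes. Groups without overlap were seen for 3 of the 10, *Tgfb1*, *Smad3* and *Ski*, against 14.2% of all genes. The members' shares are shares of 10 genes and so move in steps of 10%. The study had already named *Tgfb3* as a gene of WT stage 2 cells in these data. Members were chosen with such results known, so the shares are descriptive only.

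The other pathway genes were taken from 8 lists of 96 genes in all, of which 83 were in the table and 78 to 83 were tested in each comparison. Between the WT stages 7 rose and 2 fell by fold and p, with a median log2 fold change of 0.00 against -0.01 over all genes. Between *Med23*-deficient and WT stage 2 cells 0 rose and 5 fell (median -0.10 against -0.01), and by adjusted p limma called 0, while 19 of 83 had an unadjusted p of at most 0.05, or 22.9% against 9.58% of all genes. Between *Med23*-deficient stage 2 and WT stage 3 cells 2 rose and 8 fell (median -0.01 against 0.00). The share at an unadjusted p of at most 0.05 in limma was also above that of all genes in the other comparisons. It was 19 of 78, or 24.4% against 13.2%, between the WT stages. For *Med23*-deficient stage 2 against WT stage 3 cells it was 18 of 81, or 22.2% against 10.2%. The lists were chosen with earlier results of these data known, so these shares are descriptive only. The shares of all genes called by fold and p in these 3 comparisons were 3.6%, 2.11% and 2.86%. Most of the genes that passed were in the lists of genes known to respond to TGF-β in T cells.

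Of the genes that handle the latent ligand, 0 of 5 to 9 tested passed by fold and p or by adjusted p in any comparison, and in limma 0 had an unadjusted p of at most 0.05. Over all genes, 2.11% to 3.6% passed by fold and p and 9.58% to 13.2% had such a p, so 0 of so few genes is little apart from all genes. The most abundant were *Nrros*, which anchors latent TGF-β1 on myeloid cells, at 4.14 to 13.3 FPKM, and *Furin*, a protease that processes the precursor, at 2.89 to 6.45. Among 12 other ligands, receptors and co-receptors tested, *Eng*, encoding the co-receptor endoglin, fell from 13.0, 9.50 and 5.79 FPKM in WT stage 2 to 0.91, 0.47 and 0.53 in WT stage 3. The log2 fold change was -2.62 (SE 0.32, adjusted p = 0.0265, limma with Benjamini-Hochberg adjustment), and the adjusted p was 0.0588 to 0.108 with any 1 library left out. *Eng* was at 1.23, 2.56 and 1.55 in *Med23*-deficient cells, a fall of 1.87 from WT stage 2 that passed by fold and p (adjusted p = 0.126 in limma). *Tgfbr3*, the co-receptor betaglycan that presents ligand to TGFBR2, was at 6.83, 7.06 and 8.47 in WT stage 2, at 4.80, 5.52 and 4.75 in WT stage 3 and at 9.92, 11.6 and 10.5 in *Med23*-deficient cells. The 3 groups did not overlap, and *Tgfbr3* was higher in *Med23*-deficient stage 2 than in WT stage 3 cells by 0.95 (SE 0.13, adjusted p = 0.0312 in limma), a call lost with any 1 library left out, with adjusted p from 0.0949 to 0.127. *Bmp7*, a BMP ligand, at 6.02 to 12.2 and *Gdf11*, an activin-like ligand, at 4.62 to 10.5 were the most abundant genes of that list and did not pass.

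The other Smads in the table, *Smad5* (3.09 to 5.23 FPKM) and *Smad1* (0.39 to 2.50), both of the BMP branch, did not pass in any comparison. None of the 17 regulators of receptors and Smads tested passed by fold and p or by adjusted p in limma, with 3, 2 and 1 at an unadjusted p of at most 0.05 in the WT stage comparison, against WT stage 2 and against WT stage 3. The shares of all genes at that p were 13.2%, 9.58% and 10.2%, so these counts were not far from those of all genes. The most abundant were *Ppp1r15a*, a phosphatase subunit that acts with SMAD7 on TGFBR1, with a mean of 37.2 FPKM over the 9 libraries, and *Stub1*, a ubiquitin ligase, with 22.5. Of 14 nuclear partners, *Tgif1*, a homeodomain corepressor of SMAD2, passed by fold and p in both comparisons with *Med23*-deficient cells. It was at 2.49, 2.58 and 1.19 in WT stage 2, at 1.82, 2.36 and 1.69 in WT stage 3 and at 0.21, 0.38 and 0.78 in *Med23*-deficient cells. The *Med23*-deficient values were below all 6 WT values, with log2 fold changes of -1.07 (SE 0.30) and -1.03 (SE 0.24) and adjusted p of 0.308 and 0.159 (limma, Benjamini-Hochberg). The corepressor *Ncor1* (39.0 to 53.3) and the coactivator *Crebbp* (34.1 to 44.5) were the most abundant of that list and did not pass. Of the 8 genes of the Smad-independent branch, 0 passed by fold and p or by adjusted p in limma, with 0, 1 and 0 at an unadjusted p of at most 0.05, against the same shares of all genes. *Rhoa*, a small GTPase, and *Tab2*, an adaptor of the kinase TAK1, were the most abundant, with means of 30.5 and 23.6 FPKM.

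Genes known to be raised by TGF-β in T cells did not all move one way, though 8 of 9 were lower in *Med23*-deficient than in WT stage 2 cells. *Itgae*, the integrin CD103 and a standard TGF-β target in T cells, was at 36.3, 63.6 and 40.4 FPKM in WT stage 2, at 67.4, 85.4 and 83.0 in WT stage 3 and at 4.93, 7.63 and 9.49 in *Med23*-deficient cells. The 3 groups did not overlap. *Itgae* fell by 2.51 from WT stage 2 to *Med23*-deficient cells (SE 0.29, past fold and p, adjusted p = 0.0511, limma with Benjamini-Hochberg adjustment) and differed from WT stage 3 by -3.28 (SE 0.23, adjusted p = 0.00501), a call kept with each library left out. *Cdh1*, the epithelial cadherin bound by CD103, was at 3.85, 7.17 and 2.74 in WT stage 2, at 18.6, 24.7 and 30.9 in WT stage 3 and at 0.98, 1.90 and 2.48 in *Med23*-deficient cells. It rose by 2.25 between the WT stages (adjusted p = 0.0412 in limma, passing with 1 library left out only without WT stage 2 replicate 2), and its difference from WT stage 3 to *Med23*-deficient cells was -3.22 (adjusted p = 0.00896, lost without WT stage 3 replicate 2, at 0.0555). *Ccr8*, a chemokine receptor, at 5.80 to 24.6 FPKM did not pass. By fold and p, 1 of 9 rose and 1 fell between the WT stages, 0 rose and 2 of 9 fell against WT stage 2, and 1 rose and 2 of 8 fell against WT stage 3. Over all genes, 3.6%, 2.11% and 2.86% were called. At any size, 3 were higher and 6 lower, 1 higher and 8 lower, and 4 higher and 4 lower. List medians were -0.17, -0.41 and -0.03, against -0.01, -0.01 and 0.00 over all genes. The -0.17 was the value of *Foxp3*, listed above 0 only for WT stage 2 replicate 3. The -0.41 was that of *Cdkn2b*, whose only WT stage 2 library above 0 was replicate 2 (2.33 FPKM). The -0.03 lay between *Cdkn1a* (-0.07) and *Cdkn2b* (0.01). The medians thus rest on genes near 0 and do not show a shift of the list as a whole. These genes are also among the 8 lower in *Med23*-deficient than in WT stage 2 cells. Some genes of the list were near 0, such as *Foxp3* and *Cdkn1a*, at up to 0.41 and 0.53 FPKM.

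**Figure D5:**
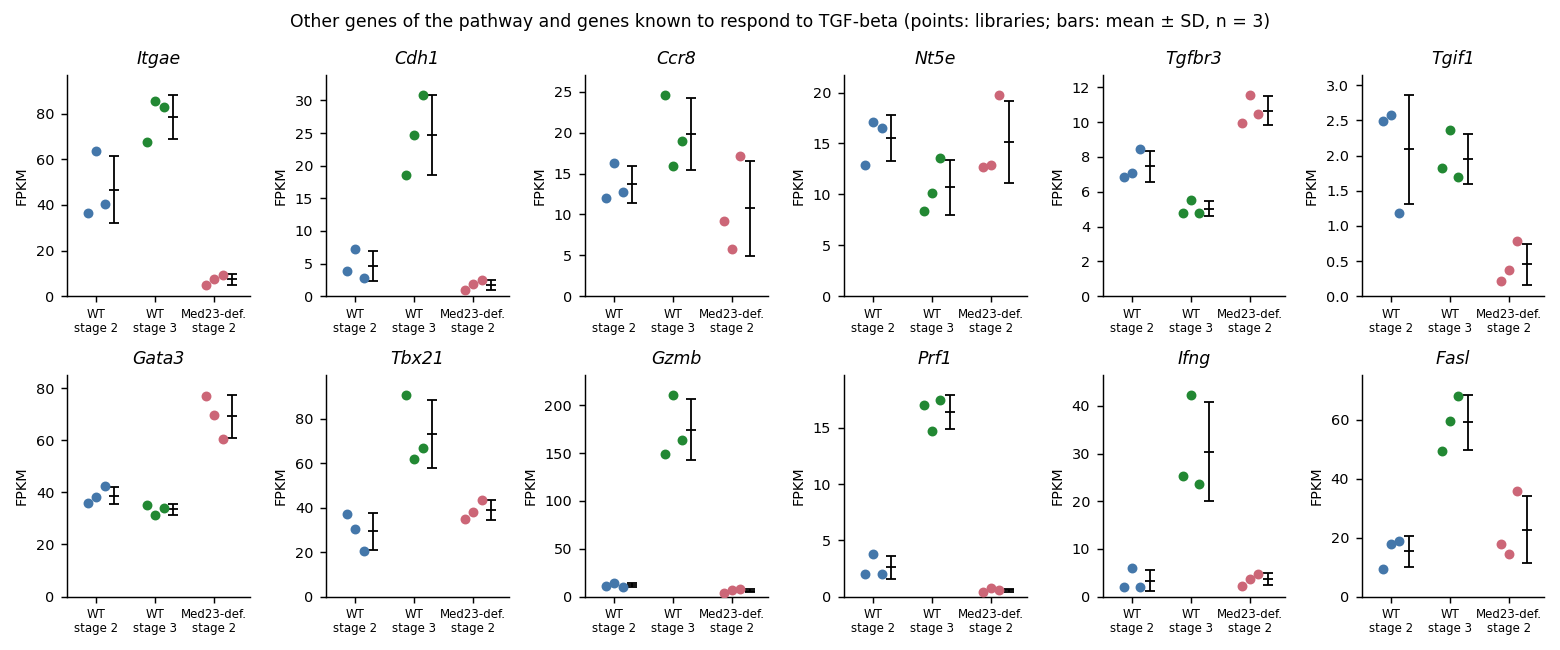
FPKM (linear axes from 0) of 12 further genes of the pathway lists in each library, with bars for the mean ± SD of n = 3. *Itgae* and *Cdh1* are lowest in the *Med23*-deficient libraries and highest in WT stage 3, *Gata3* is highest in the *Med23*-deficient libraries, at 60.7 to 77.2, and *Gzmb*, *Prf1* and *Ifng* are highest in WT stage 3.

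Genes known to be lowered by TGF-β in T cells rose between the WT stages in 6 of 11 tested by fold and p, with 0 falling and a list median of 1.31 against -0.01 over all genes. Of all genes, 3.6% were called by fold and p in either direction. Cytotoxic and cytokine genes of this kind are known features of stage 3 cells, which were gated here by NK1.1. *Gzmb*, encoding granzyme B, rose from 11.4, 14.4 and 10.2 FPKM to 149, 211 and 164 (log2 fold change 3.76, SE 0.18, adjusted p = 0.00368, limma with Benjamini-Hochberg adjustment), and the call was kept with each library left out. *Prf1*, encoding perforin, rose by 2.31 (adjusted p = 0.016), *Ifng*, encoding interferon-γ, by 2.93 (adjusted p = 0.0343) and *Fasl*, encoding the Fas ligand, by 1.93 (adjusted p = 0.0399). These calls were lost without any 1 of the WT stage 3 libraries and without WT stage 2 replicate 3, and also without WT stage 2 replicate 1 for *Ifng* and replicate 2 for *Fasl*, with adjusted p of up to 0.0858, 0.112 and 0.133. *Gzma*, encoding granzyme A, was listed at 0, 0 and 1.5 in WT stage 2 and at 41.4, 29.5 and 17.6 in WT stage 3 (adjusted p = 0.019 in limma, lost without any library but WT stage 2 replicate 3, up to 0.0817). *Tbx21*, encoding T-bet, which drives stage 3, was at 37.2, 30.5 and 20.4 in WT stage 2 and at 90.7, 62.0 and 66.9 in WT stage 3, and its rise of 1.31 passed by fold and p (adjusted p = 0.0742 in limma).

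In *Med23*-deficient stage 2 cells the same list did not move one way. Against WT stage 2, 0 of 12 tested rose and 1 fell by fold and p, against 2.11% of all genes called, with a list median of 0.03 against -0.01 over all genes. The gene that fell was *Prf1*, at 0.43, 0.72 and 0.55 FPKM against 2.01, 3.79 and 2.01 (log2 fold change -1.17, SE 0.28, adjusted p = 0.23, limma with Benjamini-Hochberg adjustment). *Gata3*, the factor of the NKT2 subset, was at 77.2, 69.7 and 60.7 FPKM in *Med23*-deficient cells against 35.8, 38.1 and 42.5 in WT stage 2 and 35.3, 31.2 and 33.9 in WT stage 3. It was higher than in WT stage 3 by 1.02 (SE 0.11, adjusted p = 0.0175 in limma, passing with 1 library left out only without *Med23*-deficient replicate 3, up to 0.0811) and than in WT stage 2 by 0.82 (adjusted p = 0.0786), which did not reach a fold of 2. Against WT stage 3, 1 of 11 rose and 5 fell by fold and p, against 2.86% of all genes called. The log2 fold change was -4.62 for *Gzmb* (adjusted p = 0.00149), -3.48 for *Prf1* (adjusted p = 0.00142) and -2.76 for *Ifng* (adjusted p = 0.0178) in limma. *Gzma* was listed at 0 in all 3 *Med23*-deficient libraries (adjusted p = 0.00408), and *Fasl*, at 17.9, 14.6 and 35.7 FPKM against 49.5, 59.6 and 68.1, had a log2 fold change of -1.43 and passed by fold and p (adjusted p = 0.161). The calls of *Gzmb*, *Prf1* and *Gzma* were kept with each library left out, and that of *Ifng* passed only without *Med23*-deficient replicate 3, with adjusted p of up to 0.069.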

How the data were processed

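Total RNA of sorted thymic iNKT cells was sequenced in 9 libraries. Per the study's methods and processing notes, the authors trimmed reads with Trimmomatic 0.36, aligned them to mm10 with HISAT2 and quantified GENCODE genes with StringTie. The deposited values are FPKM per gene and library, with replicates kept apart. They hold no counts, so library depth cannot be stated and counting error is not covered.

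The values were put on the log2(FPKM + 1) scale. Each gene was fitted by limma 3.58.1 (R 4.3.3, lmFit and trended eBayes, 2-sided), on the 6 libraries compared and genes above 0 in at least 1. Genes were called by a fold of at least 2 with p of at most 0.05, the study's thresholds, and, separately, by p adjusted after Benjamini-Hochberg over all genes tested, with the limit at 0.05. In data simulated for WT stage 3 against WT stage 2, 200 of 21769 genes were changed by 2 on the log2 scale, up or down. These genes had a mean log2(FPKM + 1) above 1 over the WT libraries. Of them, 96% were recovered by fold and p and 67% by adjusted p, and 11.8% of the adjusted calls were unchanged genes. Recovery of smaller changes, or of genes as low as *Tgfb3*, was not measured. Ratios within libraries were compared by exact permutation tests (2-sided, scipy 1.17.1) on the log2 scale, and on the linear scale for *Tgfb3* to *Tgfb1*, since *Tgfb3* was listed at 0. Nothing in the labels says that replicates came from separate mice, so p-values measure only the spread between these samples.

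All 10 members, *Med23*, list genes passing either call, the 2 most abundant genes of each list and the 3 genes most like *Tgfb3* (Gm and Rik models left out) were named, except 2 list genes that are not reported here. Members and lists were chosen with earlier results of these data known. Of 96 pathway genes listed, 83 were in the table, and the rest, such as *Smad6*, *Inhba* and *Itgb6*, were not analysed here. Alternatives were the TPM scale, a pseudocount of 0.1, equal upper quartiles, a filter at a mean FPKM of 1, limma with no trend, a Ballgown-style linear model with a library-size covariate, all 9 libraries, a replicate block and leaving out each library.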

Additional observations from a re-analysis of the deposited data

How the results depend on the processing

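Of 417 repeats of the member fold changes, 378 kept direction and side of the threshold, 7 lost a call, 1 gained one and 31 changed sign. The lost and gained calls concern *Tgfb3*, and the sign changes concern differences that never passed. Depth is unknown, so a value of 0 sets no lower limit.

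Between the WT stages, the count of members called by adjusted p, 1 over all libraries (limma, Benjamini-Hochberg), was 0 in the Ballgown-style model and 0 to 1 with 1 library left out, and with a mean FPKM of at least 1, where *Tgfb3* was not tested, 0 were called by either rule. Pathway genes called by adjusted p, 8 over all libraries, numbered 5 on the TPM scale, 0 in the Ballgown-style model and 1 to 5 with 1 library left out. All genes called by adjusted p, 346 over all libraries, numbered 224, 5 and 22 to 137 in these fits. In *Med23*-deficient against WT stage 2 cells, the mean FPKM filter left 0 members called by fold and p, and a fit of all 9 libraries called 1, *Tgfb3*, by adjusted p (0.0063). There, pathway genes called by fold and p, 5 over all libraries, numbered 10 with a pseudocount of 0.1 and 4 to 8 with 1 library left out (8 without *Med23*-deficient replicate 3). Those called by adjusted p, 0 over all libraries, numbered 1 with a pseudocount of 0.1, 4 with a mean FPKM of at least 1, 1 with a common upper quartile and 4 with all 9 libraries. All genes called by adjusted p went from 44 to 56, 143, 48 and 176 in these fits. Against WT stage 3, 8 pathway genes were called by adjusted p over all libraries, 0 in the Ballgown-style model and 4 to 8 with 1 library left out. For all genes these counts were 278, 18 and 72 to 174.

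Same-numbered replicates correlated at 0.00 to 0.27 in their deviations from the group means, and 11 of 18 comparisons were highest with their own number. Between the WT stages, every library was highest with its own number (r of 0.03 to 0.16), whereas comparisons with *Med23*-deficient libraries were mixed. Nothing in the labels ties the numbers, and whether same-numbered samples shared a source was not tested. The main fits were unpaired. With the replicate block, 0 members and 2 pathway genes passed the adjusted threshold between the WT stages, 5 pathway genes passed between *Med23*-deficient stage 2 and WT stage 3 cells. All genes called by adjusted p went from 346 to 19 between the WT stages, from 44 to 0 against WT stage 2 (limma, with 1940 at an unadjusted p of at most 0.05) and from 278 to 42 against WT stage 3. Members at an unadjusted p of at most 0.05 went from 1 to 2 between the WT stages and from 1 to 3 against WT stage 3. All genes at that p went from 2738 to 2735 of 20689 and from 2128 to 2111 of 20846. Counts of members and pathway genes by fold and p were the same.

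Signs turned for small differences. In *Med23*-deficient against WT stage 2 cells, the TPM scale gave -0.0060 for *Tgfb1* and -0.091 for *Tgfbr2*, a common upper quartile gave 0.061 for *Smad4*, 0.084 for *Ski* and 0.097 for *Skil*, the Ballgown-style model gave -0.056 for *Tgfb1* and 0.16 for *Skil*, and a pseudocount of 0.1 gave 0.0012 for *Skil*. A common upper quartile gave 0.065 for *Smad3* and 0.073 for *Smad4* between the WT stages. With 1 library left out, the log2 fold change against WT stage 2 ran in *Med23*-deficient cells from -0.042 to 0.44 for *Tgfbr1*, from -0.067 to 0.14 for *Tgfbr2*, from -0.16 to 0.030 for *Smad4*, from -0.27 to 0.071 for *Smad7*, from -0.050 to 0.012 for *Ski* and from -0.12 to 0.15 for *Skil*. Between the WT stages it ran from -0.096 to 0.024 for *Smad3* and from -0.13 to 0.059 for *Smad4*. For *Med23*-deficient stage 2 against WT stage 3 it ran from -0.028 to 0.085 for *Tgfb3*, from -0.20 to 0.31 for *Smad2* and from -0.062 to 0.016 for *Smad4*.

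With 1 library left out, the log2 difference of the ratio of *Skil* to *Ski* ran from -0.21 to 0.13 between the WT stages, from -0.10 to 0.16 in *Med23*-deficient against WT stage 2 cells and from -0.10 to 0.23 against WT stage 3. The difference in the ratio of *Tgfb3* to *Tgfb1* between *Med23*-deficient stage 2 and WT stage 3 cells ran from -0.000957 to 0.00223, and was -0.22 on the log2 scale with a pseudocount of 1. The other ratio differences kept their direction under these alternatives. The cause of these changes was not tested.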
